A study of Mus musculus with 12 samples.

Results

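Transporters of the solute carrier families Slc1, Slc6, Slc12, Slc17, Slc18 and Slc32 carry neurotransmitters, amino acids, taurine, creatine and chloride across cell and vesicle membranes. The genes described here were every symbol of the deposited count table that starts with Slc1a, Slc6a, Slc12a, Slc17a, Slc18a or Slc32a and ends in a number. This rule used no measured value and gave 39 genes among 22317 symbols. They were followed by RNA-seq across 12 mouse libraries in 4 groups of 3.

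All samples came from wild-type male BALB/c mice aged 8 weeks with an ischemic injury made by photothrombosis, in which a laser lights the dye Rose Bengal in the blood and closes the vessels of a small area. The libraries labelled SB2 and SB4 are labelled as brain cortex on day 2 and on day 4 after an injury of the skull. The libraries labelled BS2 and BS6 are labelled as interparietal bone, a bone of the skull, on day 2 and on day 6 after an injury of the brain. The tissue piece held the ischemic region and its border, no control group was analysed here, and each group had 3 biological replicates. The total count per library was 14126082 to 18972654, so that 3 counts, the upper limit for a gene with 0 counts, corresponded to 0.163 to 0.218 CPM (the read count scaled to library size, with TMM factors of edgeR). These limits cover counting error only, since the reads carry no molecular identifiers.

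Tissue markers went against the labels of both day 2 groups. The 8 neuronal markers, all of them in the table, summed to 42.5 to 78.3 CPM per library in SB2 and to 8430 to 8730 CPM in BS2, against 8700 to 9020 CPM in SB4 and 49.7 to 113 CPM in BS6. Of 10 osteoblast and osteocyte markers 7 were in the table, and they summed to 3320 to 5290 CPM in SB2, 20.2 to 22.1 CPM in SB4, 20.3 to 25.2 CPM in BS2 and 1190 to 2830 CPM in BS6. The groups are therefore named by their labels only, with SB2 and BS6 called bone-rich where a short name is needed, and every comparison between days was also one between libraries with abundant neuronal and libraries with abundant bone transcripts, which cannot be told apart here. In such bulk samples, fewer cells of a type and less RNA per cell cannot be told apart either.

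As background, neurotransmission ends when plasma membrane carriers return the transmitter to neurons and glia. Astrocytes take up most glutamate through the products of Slc1a2 and Slc1a3, and GABA is cleared by carriers of the Slc6 family, among them the product of Slc6a11. Vesicular carriers load the transmitter before release, with the products of Slc17a7 and Slc17a6 for glutamate and that of Slc32a1 for GABA and glycine. Cation-chloride cotransporters set the chloride level inside the cell. The importer encoded by Slc12a2 raises it and the neuronal potassium-chloride exporter encoded by Slc12a5 lowers it, and their balance decides whether GABA inhibits a neuron. Bone, marrow and blood use other members of the same families for volume control, amino acid uptake and the uptake of serotonin by platelets.

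The promoters of 5 members are shown because these genes lay at both ends of the pattern described below: Slc17a7, Slc32a1 and Slc12a5 were abundant in SB4 and BS2, and Slc12a4 and Slc6a4 were abundant in SB2 and BS6. Each sequence is the stretch upstream of the RefSeq transcription start (GRCm38.p6, the same assembly as mm10), written from 5′ to 3′ on the strand of the gene, with the motif GGGCGG or its reverse complement in capitals.
Slc17a7 (plus strand, chr7:45163671-45163920): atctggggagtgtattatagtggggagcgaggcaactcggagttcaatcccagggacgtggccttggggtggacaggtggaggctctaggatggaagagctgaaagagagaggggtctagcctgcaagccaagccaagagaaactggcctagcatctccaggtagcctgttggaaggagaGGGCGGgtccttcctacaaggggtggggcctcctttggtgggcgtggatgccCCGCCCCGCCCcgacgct
Slc32a1 (plus strand, chr2:158610508-158610757): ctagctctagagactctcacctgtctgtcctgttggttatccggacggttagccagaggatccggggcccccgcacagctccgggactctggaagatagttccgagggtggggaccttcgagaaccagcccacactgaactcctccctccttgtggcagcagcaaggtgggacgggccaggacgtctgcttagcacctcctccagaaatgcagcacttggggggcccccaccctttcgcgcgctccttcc
Slc12a5 (plus strand, chr2:164960596-164960801): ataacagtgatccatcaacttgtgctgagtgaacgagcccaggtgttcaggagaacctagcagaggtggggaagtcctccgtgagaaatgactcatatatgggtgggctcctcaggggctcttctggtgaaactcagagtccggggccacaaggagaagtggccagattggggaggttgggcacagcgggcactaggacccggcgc
Slc12a4 (minus strand, chr8:105966116-105966365): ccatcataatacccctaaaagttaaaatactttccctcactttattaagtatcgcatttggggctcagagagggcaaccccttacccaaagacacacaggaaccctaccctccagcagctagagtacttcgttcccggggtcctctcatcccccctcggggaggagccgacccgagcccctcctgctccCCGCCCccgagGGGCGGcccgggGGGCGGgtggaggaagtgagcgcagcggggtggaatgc
Slc6a4 (plus strand, chr11:76998347-76998596): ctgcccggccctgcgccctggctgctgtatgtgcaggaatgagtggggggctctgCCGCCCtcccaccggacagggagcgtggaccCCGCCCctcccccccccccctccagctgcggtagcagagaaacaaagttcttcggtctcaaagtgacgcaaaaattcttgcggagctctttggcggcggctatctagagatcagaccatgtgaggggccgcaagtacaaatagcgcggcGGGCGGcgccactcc
Each window held 250 bases, except that of Slc12a5, which ended after 206 bases, before the first annotated base of the gene. The motif GGGCGG was present in the windows of Slc17a7, Slc12a4 and Slc6a4 and was not found in those of Slc32a1 and Slc12a5. A further RefSeq entry of Slc12a5, from a start downstream of the one shown (chr2:164967738-164968037), did hold it. RefSeq held a promoter entry for 29 of the 39 members. Searched on both strands of the 250 upstream bases, GGGCGG occurred in 19 of these 29 members (65.5%) and in 57.2% of 13826 genes, where a gene was counted if any of its entries held the motif. CAGCACC, the core of the motif of the neuronal repressor REST, occurred in 1 member (3.45%) and in 7.27% of genes. TATAAA occurred in 2 members (6.9%) and in 8.95% of genes, and the cAMP response element TGACGTCA in 0 members and in 2.65% of genes. A match is a run of letters in this window and no measured binding site.

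The 39 transporters together took a larger share of the counts in SB4 and BS2 than in the other groups. They received 0.832% to 0.866% of all counts in the SB4 libraries and 0.819% to 0.862% in BS2, against 0.12% to 0.13% in SB2 and 0.133% to 0.18% in BS6. Slc1a2 alone made up 44.7% to 46.7% of the member counts in SB4 and 45.8% to 49.7% in BS2, but 0.955% to 3.04% in SB2 and 0.612% to 3.92% in BS6. A mean of at least 100 CPM was reached by 10 members in SB4 and 10 in BS2, by 3 in SB2 and by 4 in BS6. Compared per kilobase of annotated exon, the most abundant member was Slc1a2 in SB4 (303 CPM per kilobase) and in BS2 (312), followed in both by Slc17a7 (199 and 190) and Slc12a5 (110 and 101). In SB2 and BS6 the taurine transporter gene Slc6a6 led with 45.7 and 64.8 CPM per kilobase, followed by the potassium-chloride cotransporter gene Slc12a4 (26.3 and 24.8) and the creatine transporter gene Slc6a8 (22.4 and 22.3).

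**Figure D1:**
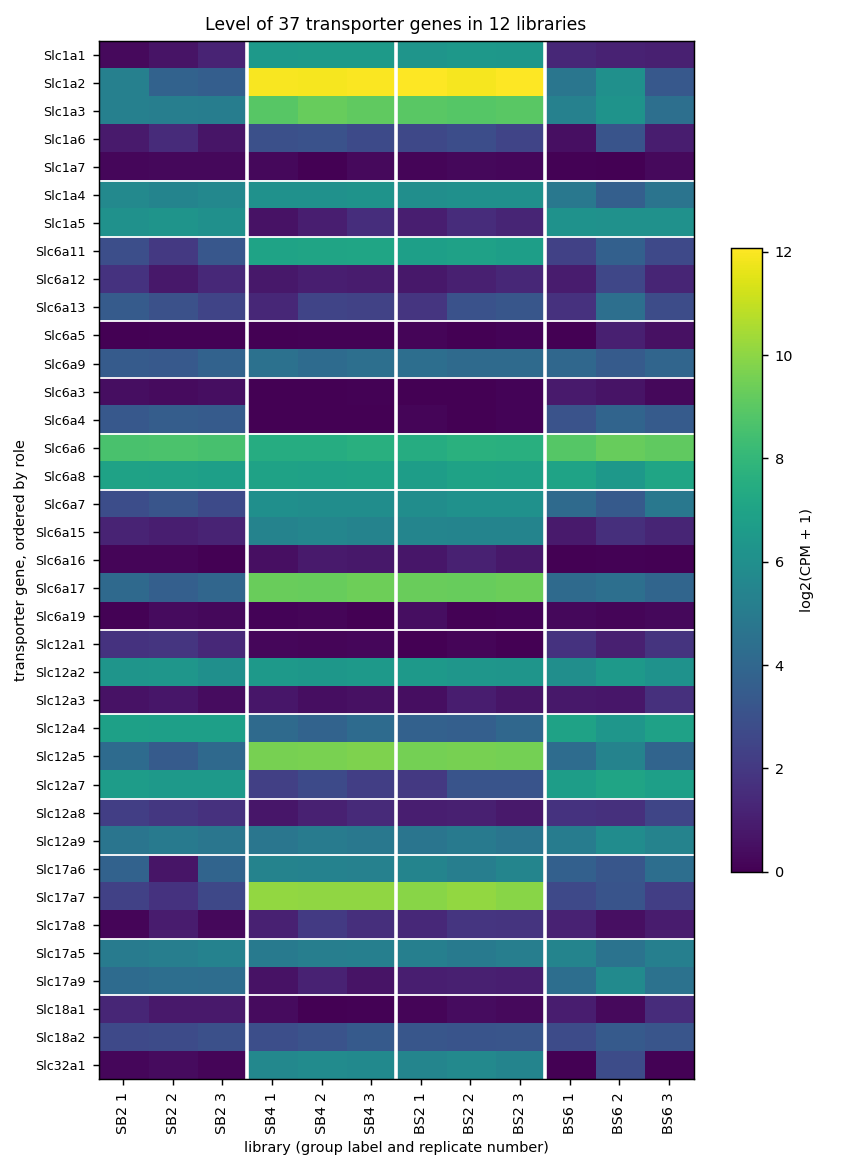
Level of each of 37 transporter genes (rows, ordered by role, with white lines between roles) in each of the 12 libraries (columns), as colour on a scale of log2(CPM + 1). Slc1a2, Slc17a7, Slc12a5 and Slc6a17 are bright in the 6 libraries labelled SB4 and BS2 and dim in the other 6, while Slc1a5, Slc12a4, Slc12a7 and Slc6a6 show the opposite order.

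Within each tissue label the later day was compared with day 2. Calls needed a Benjamini-Hochberg adjusted p below 0.05 in edgeR's quasi-likelihood test over all genes, together with a log2 fold change beyond 1 in either direction. Between SB4 and SB2, 33 of the 39 members passed the filter on low counts, and 14 were called higher and 10 lower in SB4. This was 42.4% and 30.3% of the members tested, against 27.8% and 28.6% of the 17293 genes tested. In either direction 24 members (72.7%) were called, beside 56.4% of all genes. The median log2 fold change of the tested members was 0.58 (all genes, -0.01) and the median of its absolute value 3.19 (all genes, 1.25). The libraries of the groups did not overlap for 28 tested members, as for 85.5% of all genes tested.

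Between BS6 and BS2, 34 members were tested, and 8 were called higher and 15 lower in BS6, which was 23.5% and 44.1% of them beside 29% and 26.5% of 17311 genes. In either direction 23 members (67.6%) were called, beside 55.5% of all genes. The median log2 fold change was -0.47 (all genes, 0.02) and its absolute median 2.43 (all genes, 1.26). The groups did not overlap for 26 tested members and for 80.8% of all genes. These comparisons share no library. Of the members, 20 were called in both, and all 20 changed in opposite directions, as did 99.8% of the 8355 genes called in both. A contrast over the 12 libraries tested the difference between these changes itself, and 27 of 35 tested members passed the same thresholds, beside 73.6% of 18068 genes.

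**Figure D2:**
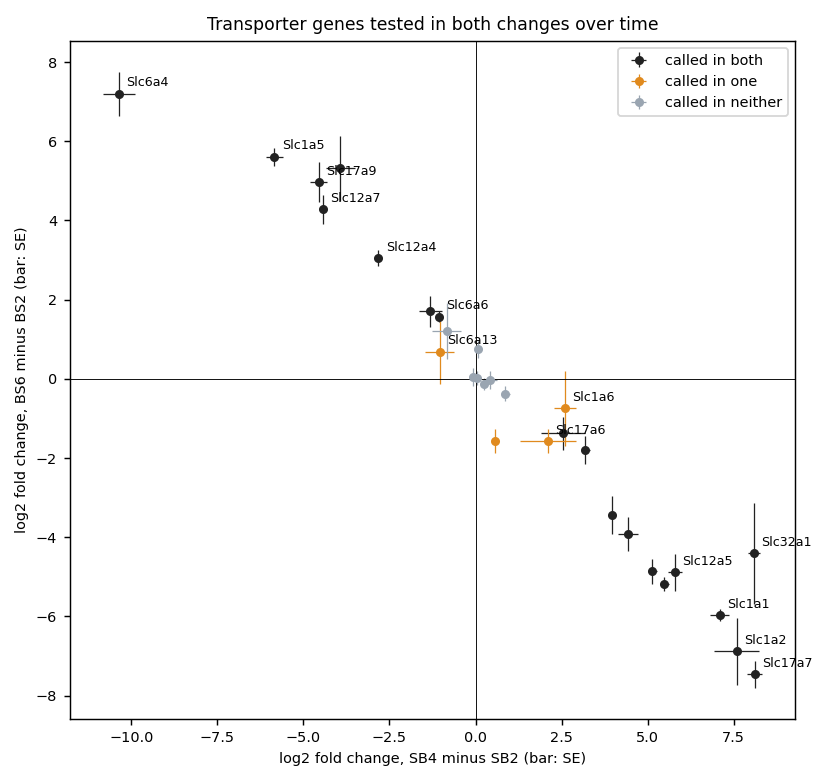
Fitted log2 fold change between days of the members reported here and tested in both comparisons, SB4 minus SB2 on the horizontal axis and BS6 minus BS2 on the vertical axis, each point 1 gene with bars of 1 standard error. Points called in both lie in the upper left and lower right of the plot. The fitted value of Slc6a4 on the horizontal axis rests on a group with 0 counts and is no measured fold.

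Glutamate carriers of the plasma membrane were led by the astrocyte gene Slc1a2 (GLT-1, chromosome 2, positions 102658659 to 102790784 of mm10). Slc1a2 was at 3960, 3840 and 4140 CPM in the SB4 replicates 1 to 3 and at 4290, 3820 and 4160 CPM in BS2. It was at 37.7, 12.9 and 11.2 CPM in SB2 and at 25.5, 66.4 and 8.85 CPM in BS6. The lowest library of SB4 and BS2 was far above the highest library of the other groups. Slc1a2 was higher in SB4 than in SB2 by 7.59 on the log2 scale (standard error 0.66, edgeR adjusted p = 0.00027) and lower in BS6 than in BS2 with a log2 fold change of -6.88 (standard error 0.84, edgeR adjusted p = 0.000403). Its low means each rested on 1 library: without SB2 replicate 1 the SB2 mean of 20.6 CPM became 12 CPM and the log2 fold change of SB4 against SB2 became 8.37, and without BS6 replicate 2 the BS6 mean of 33.6 CPM became 17.2 CPM and that of BS6 against BS2 became -7.86.

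Slc1a3 (GLAST), the other astrocyte glutamate carrier, showed a smaller contrast. It was at 486, 611 and 552 CPM in SB4, 499, 470 and 506 CPM in BS2, 37, 35.2 and 33.2 CPM in SB2 and 38, 73.1 and 20 CPM in BS6. Its log2 fold change was 3.97 in SB4 against SB2 (standard error 0.1, edgeR adjusted p = 1.69e-11) and -3.45 in BS6 against BS2 (standard error 0.48, edgeR adjusted p = 0.000725), the latter -4.04 without BS6 replicate 2. The 8 astrocyte markers, which do not include these genes, summed to 816 to 947 CPM in SB2, 997 to 1100 in SB4, 1090 to 1120 in BS2 and 508 to 926 in BS6. The members of this sum ran in different directions. Gja1, a gap junction gene that is also used outside the brain, had a mean of 700 CPM in SB2, 151 in SB4, 184 in BS2 and 428 in BS6, and Fgfr3 had 109, 93.4, 80.1 and 118 CPM. The other 6 markers had higher means in SB4 and BS2 than in SB2 and BS6, among them Aldoc (15.6 CPM in SB2, 522 in SB4, 525 in BS2 and 37.9 in BS6) and Aqp4 (6.29, 73.5, 84.7 and 4.94 CPM). The part of astrocyte content in the levels of Slc1a2 and Slc1a3 was not tested.

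Slc1a1 (EAAC1), the neuronal carrier, was nearly silent outside SB4 and BS2. It was at 89.4, 95.7 and 93.4 CPM in SB4 and 76.9, 84.1 and 83.1 CPM in BS2, but at 0.228, 0.533 and 1.28 CPM in SB2 and 1.5, 1.21 and 1.08 CPM in BS6. The log2 fold change was 7.09 in SB4 against SB2 (standard error 0.27, edgeR adjusted p = 2.59e-08, and 7.95 without SB2 replicate 3) and -5.96 in BS6 against BS2 (standard error 0.16, edgeR adjusted p = 2.75e-06). Exons of Slc1a1 overlap those of 4430402I18Rik on the opposite strand, so reads of these genes cannot be told apart where strand was not used. Slc1a6 (EAAT4), known from cerebellar Purkinje cells, was at 5.51 to 7.28 CPM in SB4 and 0.611 to 1.8 CPM in SB2 and was called higher in SB4 (log2 fold change 2.59, standard error 0.32, edgeR adjusted p = 1.72e-05). In BS6 it was at 0.391, 7.85 and 0.955 CPM, and the change against BS2 of -0.74 (edgeR adjusted p = 0.503) became -2.93 (edgeR adjusted p = 7.08e-05) without replicate 2. Slc1a7, a retinal carrier, had at most 4 counts in any library and was not tested.

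Vesicular loading of glutamate is the work of Slc17a7 (VGLUT1), the main carrier of cortical neurons, and Slc17a6 (VGLUT2), that of subcortical neurons. Slc17a7 (chromosome 7, positions 45163949 to 45176142) was at 1090, 1060 and 1070 CPM in SB4 and 977, 1110 and 980 CPM in BS2. It was at 4.04, 2.4 and 5.13 CPM in SB2 and at 5.35, 7.79 and 3.69 CPM in BS6. It was higher in SB4 than in SB2 with a log2 fold change of 8.11 (standard error 0.21, edgeR adjusted p = 6.67e-10) and lower in BS6 than in BS2 with -7.46 (standard error 0.34, edgeR adjusted p = 8.79e-06).

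Slc17a6 kept a larger remainder in the bone-rich libraries, apart from 1 of them. It was at 41.4, 39.7 and 38.8 CPM in SB4, 42.1, 34.6 and 44.2 CPM in BS2, 12, 8.27 and 19.5 CPM in BS6, and 13, 0.599 and 13.7 CPM in SB2. SB2 replicate 2 held 9 counts against 229 and 225 in the other SB2 libraries. Slc17a6 was called lower in BS6 than in BS2 (log2 fold change -1.57, standard error 0.31, edgeR adjusted p = 0.00355). Against SB2 the value for SB4 was 2.11 (standard error 0.82, edgeR adjusted p = 0.0675), which became 1.58 (standard error 0.1, edgeR adjusted p = 1.13e-07) without SB2 replicate 2. Slc17a8 (VGLUT3), the carrier of scattered populations that corelease glutamate, stayed at or below 3.21 CPM in every library. It was called higher in SB4 than in SB2 (log2 fold change 2.54, edgeR adjusted p = 0.00429, and 3.83 without SB2 replicate 2) and lower in BS6 than in BS2 (-1.38, edgeR adjusted p = 0.0215), and the latter call was lost without BS2 replicate 2 (0.0705), BS2 replicate 3 (0.0683) or BS6 replicate 3 (0.0531).

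**Figure D3:**
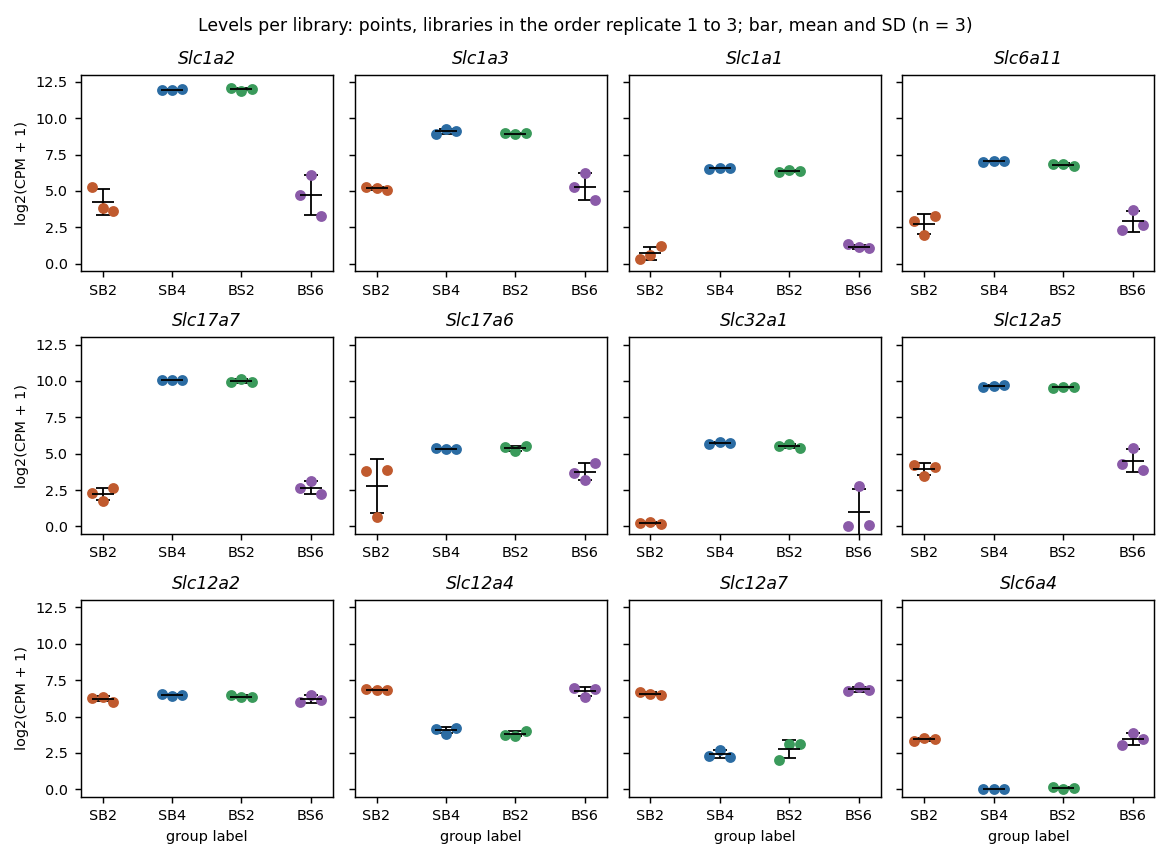
Levels of 12 transporters in each library on a scale of log2(CPM + 1), in the 4 labelled groups; points are the replicates 1 to 3 from left to right, and bars give the mean and SD of the plotted values (n = 3). Slc12a2 lies at a similar height in the 4 groups, Slc12a4, Slc12a7 and Slc6a4 lie higher in SB2 and BS6, and single points stand apart for Slc32a1 in BS6 replicate 2 and for Slc17a6 in SB2 replicate 2.

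Slc32a1 (VGAT, chromosome 2, positions 158610767 to 158615748), which loads GABA and glycine into vesicles, was at 49.4, 54.7 and 52.2 CPM in SB4 and 44.2, 50.5 and 42 CPM in BS2. In SB2 it had 3, 4 and 2 counts, or 0.171, 0.266 and 0.122 CPM. In BS6 it had 0, 100 and 1 counts, or 0, 6.04 and 0.0636 CPM, so that nearly every BS6 read came from replicate 2. The log2 fold change was 8.09 in SB4 against SB2 (standard error 0.17, edgeR adjusted p = 5.2e-12) and -4.41 in BS6 against BS2 (standard error 1.28, edgeR adjusted p = 0.0187). The latter became -10.11 (edgeR adjusted p = 8.36e-09) without BS6 replicate 2 and was no longer called (-4.35, edgeR adjusted p = 0.0535) without BS2 replicate 2.

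Of the carriers that take up GABA, Slc6a11 (GAT3) is that of astrocytes. Slc6a11 was at 128, 132 and 134 CPM in SB4, 112, 117 and 106 CPM in BS2, 6.55, 3 and 8.61 CPM in SB2 and 3.98, 12.2 and 5.41 CPM in BS6. It was higher in SB4 than in SB2 by 4.43 on the log2 scale (standard error 0.3, edgeR adjusted p = 3.08e-05) and was lower in BS6 than in BS2, with a log2 fold change of -3.91 (standard error 0.43, edgeR adjusted p = 0.000253) that became -4.53 without BS6 replicate 2.

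The betaine and GABA carrier gene Slc6a12 (BGT1) and the meningeal and hepatic GABA carrier gene Slc6a13 (GAT2), 5342 bases apart on chromosome 6, did not follow Slc6a11. Slc6a13 was at 10.1, 6.86 and 4.52 CPM in SB2, 1.56, 4.51 and 4.18 CPM in SB4, 2.6, 7.24 and 8.5 CPM in BS2 and 2.28, 20.1 and 6.05 CPM in BS6. The SB4 libraries lay just below those of SB2 (log2 fold change -1.04, standard error 0.42, edgeR adjusted p = 0.0462), and the other groups overlapped. This call was lost without SB2 replicate 1 (-0.71, edgeR adjusted p = 0.143), SB2 replicate 2 (-1.08, 0.0826), SB4 replicate 1 (-0.71, 0.0717), SB4 replicate 2 (-1.27, 0.0513) or SB4 replicate 3 (-1.2, 0.0717). It was also lost with no filter on low counts (edgeR adjusted p = 0.0591), with at least 10 counts required in every library (0.0521), in 1 fit over the 12 libraries (0.198) and with the replicate block (0.134). The 5 meningeal markers, all in the table, summed to 352 to 376 CPM in SB2, 10.4 to 18.5 in SB4, 12.8 to 35.7 in BS2 and 340 to 427 in BS6, and their part in the level of Slc6a13 was not tested. Slc6a12 stayed between 0.708 and 5.01 CPM in the 12 libraries and was called in neither comparison between days, although without SB2 replicate 2 its change in SB4 against SB2 passed (-1.16, edgeR adjusted p = 0.00966, against -0.83 and 0.0835 from all libraries).

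Of the glycine carriers, Slc6a9 (GlyT1), found in glia and in the erythroid lineage, was at 21.5, 17.8 and 19.9 CPM in SB4, 19.8, 16.8 and 17.1 CPM in BS2, 10.1, 9.32 and 12.9 CPM in SB2 and 15.5, 10.1 and 14.5 CPM in BS6. Neither change between days reached a log2 fold change of 1 (0.87 in SB4 against SB2, edgeR adjusted p = 0.000147, and -0.38 in BS6 against BS2, edgeR adjusted p = 0.106). Without SB2 replicate 3 the former became 1.02 and passed the thresholds. Exons of Slc6a9 overlap those of Ccdc24 on the opposite strand, so its level is uncertain. Slc6a5 (GlyT2), the carrier of brainstem and spinal glycinergic neurons, had at most 2 counts in each library of SB2, SB4 and BS2, and 0, 18 and 7 counts in BS6.

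Among monoamine carriers, the serotonin transporter gene Slc6a4 (SERT, chromosome 11, positions 76998603 to 77032340) was detected in the bone-rich libraries. It was at 9.06, 10.6 and 10.1 CPM in SB2 and at 7.43, 13.6 and 10.1 CPM in BS6. In SB4 it had 0 counts in each library, and in BS2 it had 2, 0 and 1 counts. It was at least 54.8-fold lower in SB4 than in SB2, computed against 3 counts per library (edgeR adjusted p = 2.9e-08). Between BS6 and BS2 the ratio of summed counts, scaled for the TMM-adjusted library sizes, was 161 (497 against 3 counts, 95% counting interval 54.9 to 785, edgeR adjusted p = 5.3e-05). The fitted log2 fold change there was 7.2, and it ran from 6.64 to 7.96 when single libraries were left out. Platelets take up serotonin through this carrier, and 7 of 8 platelet and megakaryocyte markers were in the table, which summed to 197 to 228 CPM in SB2, 4.01 to 5.46 in SB4, 4.36 to 6.43 in BS2 and 231 to 398 in BS6. Their part in the level of Slc6a4 was not tested.

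Slc18a2 (VMAT2), which loads monoamines into vesicles of neurons, platelets and mast cells, had a similar level in the 4 groups: 5.24, 5.86 and 6.59 CPM in SB2, 6.53, 7.39 and 9.64 CPM in SB4, 8.43, 7.88 and 8.21 CPM in BS2 and 5.8, 9.54 and 7.96 CPM in BS6. Neither difference was called (log2 fold change 0.42, edgeR adjusted p = 0.0574, and -0.03, edgeR adjusted p = 0.892). Of 7 mast cell and basophil markers 5 were in the table, and they summed to 74.2 to 103 CPM in SB2 and 52.1 to 137 CPM in BS6 but to at most 0.223 CPM in any library of SB4 and BS2, where Tpsb2 and Ms4a2 were at 0 counts in SB4 and Mcpt4 and Cma1 at 0 counts in BS2. Their part in the level of Slc18a2 was not tested. Slc18a1 (VMAT1), the carrier of endocrine cells, was at 0.794 to 1.48 CPM in SB2 and at 0 to 0.284 CPM in SB4 and was called lower in SB4 (log2 fold change -3.27, standard error 0.71, edgeR adjusted p = 0.00124). The SB4 libraries held 4, 0 and 1 counts, and the fitted value was -4.89 without SB4 replicate 1 and -2.62 without SB4 replicate 2. Slc18a1 was at 0.118 to 0.32 CPM in BS2 and 0.242 to 1.91 CPM in BS6 and was not tested between them. The dopamine transporter gene Slc6a3 had 3 to 13 counts in each library of SB2 and BS6 and at most 1 count elsewhere, and it was not tested. The norepinephrine transporter gene Slc6a2 and the vesicular acetylcholine transporter gene Slc18a3 were not analysed here.

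The taurine transporter gene Slc6a6, whose product helps cells keep their volume, was abundant in every library. It was at 382, 402 and 375 CPM in SB2 and 473, 614 and 556 CPM in BS6, above 178, 176 and 196 CPM in SB4 and 174, 200 and 196 CPM in BS2. It was called lower in SB4 than in SB2 (log2 fold change -1.07, standard error 0.07, edgeR adjusted p = 6.8e-08) and higher in BS6 than in BS2 (1.57, standard error 0.14, edgeR adjusted p = 9.55e-05). The creatine transporter gene Slc6a8 showed no call in either comparison, with group means of 117 ± 5.19 CPM in SB2, 121 ± 2.64 in SB4, 116 ± 9.83 in BS2 and 116 ± 25.9 in BS6 (SD, n = 3).

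Among the amino acid carriers of the Slc6 family were Slc6a17 (NTT4, a carrier of synaptic vesicles), Slc6a15 and Slc6a7 (the brain proline transporter PROT). These genes were higher in SB4 and BS2 than in SB2 and BS6. Slc6a17 was at 619 to 673 CPM in SB4 and 618 to 645 in BS2, and at 11.7 to 16.7 CPM in SB2 and 14.1 to 19.9 in BS6. Its log2 fold change was 5.48 in SB4 against SB2 (standard error 0.13, edgeR adjusted p = 1.02e-11) and -5.18 in BS6 against BS2 (standard error 0.18, edgeR adjusted p = 4.08e-06). Slc6a15 went from 0.999 to 1.31 CPM in SB2 to 41.1 to 44.8 CPM in SB4 (log2 fold change 5.13) and from 42.1 to 44.4 CPM in BS2 to 0.848 to 2.11 CPM in BS6 (-4.86). Slc6a7 showed a smaller contrast, from 5.56 to 8.19 CPM in SB2 to 58.6 to 63.8 CPM in SB4 (3.19) and from 59 to 68.9 CPM in BS2 to 9.66 to 27.8 CPM in BS6 (-1.8). Slc6a16 had 10 to 18 counts per BS2 library and 0, 1 and 0 counts in BS6, a ratio of summed counts, scaled for library size, of 40.1 (39 against 1 count, 95% counting interval 6.78 to 1620). Slc6a19, an intestinal and renal carrier, had at most 6 counts in any library.

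The neutral amino acid exchangers of the Slc1 family differed from each other. Slc1a5 (ASCT2), the glutamine carrier of dividing cells, was at 68.6, 74 and 65.3 CPM in SB2 and 70.2, 66.8 and 68 CPM in BS6, and at 0.497, 1.03 and 1.95 CPM in SB4 and 1, 1.92 and 1.38 CPM in BS2. It was called lower in SB4 than in SB2 (log2 fold change -5.84, standard error 0.25, edgeR adjusted p = 5.86e-08) and higher in BS6 than in BS2 (5.61, standard error 0.23, edgeR adjusted p = 6.28e-06). Slc1a4 (ASCT1), a carrier of serine and alanine, was at 42.2 to 50 CPM in SB2, 68.5 to 72.7 in SB4 and 60.7 to 65.8 in BS2, and at 27.1, 11.6 and 24.2 CPM in BS6. It was called lower in BS6 than in BS2 (-1.57, standard error 0.3, edgeR adjusted p = 0.00319), while its rise of 0.58 in SB4 against SB2 stayed below the fold threshold (edgeR adjusted p = 4.27e-05).

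Of the potassium-chloride exporters, Slc12a5 (KCC2, chromosome 2, positions 164960802 to 164999731) had a pattern of higher levels in SB4 and BS2 than in SB2 and BS6. It was at 777, 807 and 863 CPM in SB4, 735, 762 and 756 CPM in BS2, 17.9, 9.92 and 16.2 CPM in SB2 and 18.5, 41.1 and 13.9 CPM in BS6. The groups with abundant neuronal transcripts did not overlap the others, with a log2 fold change of 5.79 in SB4 against SB2 (standard error 0.21, edgeR adjusted p = 6.54e-08) and -4.89 in BS6 against BS2 (standard error 0.46, edgeR adjusted p = 0.00013). Without BS6 replicate 2 the BS6 mean of 24.5 CPM became 16.2 CPM and the log2 fold change against BS2 became -5.49.

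The exporters Slc12a4 (KCC1), found in most cells, and Slc12a7 (KCC4), found in epithelia, had the reverse pattern. Slc12a4 (chromosome 8, positions 105943590 to 105966097, minus strand) was at 115, 110 and 113 CPM in SB2, 121, 79.6 and 118 CPM in BS6, 16.9, 13.2 and 17.6 CPM in SB4 and 12.5, 11.7 and 15.2 CPM in BS2. Its log2 fold change was -2.82 in SB4 against SB2 (standard error 0.11, edgeR adjusted p = 3.86e-10) and 3.05 in BS6 against BS2 (standard error 0.2, edgeR adjusted p = 2.96e-05). Slc12a7 was at 102, 92.7 and 90 CPM in SB2, 105, 130 and 113 CPM in BS6, 3.83, 5.55 and 3.73 CPM in SB4 and 3.07, 7.68 and 7.77 CPM in BS2. This was a log2 fold change of -4.43 in SB4 against SB2 (standard error 0.13, edgeR adjusted p = 7.28e-11) and 4.28 in BS6 against BS2 (standard error 0.37, edgeR adjusted p = 8.64e-05). Exons of Slc12a4 overlap those of Gm16156 on the opposite strand.

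The importer Slc12a2 (NKCC1) was at 77.3, 78.9 and 63.6 CPM in SB2, 90.5, 82.1 and 88.5 CPM in SB4, 88.2, 79.3 and 78.4 CPM in BS2 and 61.9, 88.1 and 70.6 CPM in BS6. Thus the 12 libraries lay within a range of 61.9 to 90.5 CPM. Neither change between days was called (log2 fold change 0.25, edgeR adjusted p = 0.02, and -0.12, edgeR adjusted p = 0.504). Each SB4 library still lay above each SB2 library, but that change did not reach the fold threshold. The renal importer Slc12a1 (NKCC2) was detected at 1.65 to 2.66 CPM in SB2 and 1.09 to 2.55 in BS6, and at 7 counts over the SB4 libraries and 2 over the BS2 libraries. The ratio of summed counts, scaled for library size, was 16 for SB2 against SB4 (109 against 7 counts, 95% counting interval 7.53 to 40.9) and 45.7 for BS6 against BS2 (94 against 2 counts, 12.3 to 383). The 2 BS2 counts came from replicate 2. When single libraries were left out, the fitted log2 fold change of BS6 against BS2 ran from 4.74 to 7.97. The renal importer Slc12a3 (NCC) had 5 to 15 counts in 11 libraries and 34 in BS6 replicate 3. It was not tested in SB4 against SB2 and was not called in BS6 against BS2 (log2 fold change 0.93, edgeR adjusted p = 0.207).

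The remaining members of these families were Slc12a8, Slc12a9, Slc17a5 and Slc17a9. Slc17a9 (VNUT), the vesicular nucleotide carrier, was at 17.7, 19.5 and 19 CPM in SB2 and 19.6, 53 and 22.5 CPM in BS6, against 0.497, 1.25 and 0.557 CPM in SB4 and 1, 1.09 and 1.02 CPM in BS2. It was called lower in SB4 than in SB2 (log2 fold change -4.56, standard error 0.25, edgeR adjusted p = 1.19e-08) and higher in BS6 than in BS2 (4.97, standard error 0.5, edgeR adjusted p = 0.000167). The BS6 mean of 31.7 CPM became 21 CPM and the log2 fold change 4.37 without replicate 2, in which the 6 neutrophil markers of the table, out of 8, summed to 24300 CPM against 1410 and 3310 CPM in the replicates 1 and 3, and the part of these cells was not tested. Slc17a5 (sialin), the lysosomal sialic acid exporter, had nearly equal means of 35.4 ± 3.92 CPM in SB2, 33.9 ± 2.75 in SB4, 33.8 ± 3.26 in BS2 and 33.9 ± 9.84 in BS6 (SD, n = 3). Slc12a9 was called in neither comparison, and Slc12a8 was lower in SB4 than in SB2 (-1.31, edgeR adjusted p = 0.00394) and higher in BS6 than in BS2 (1.71, edgeR adjusted p = 0.00654) at means of 0.963 to 3.1 CPM.

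The groups with abundant neuronal transcripts, SB4 and BS2, bear different tissue labels, days and injury sites, and no transporter was called between them. Of 31 members tested, 0 were called by edgeR, beside 0.147% of 16278 genes (0.086% higher and 0.0614% lower in SB4), with 4 members at an unadjusted p under 0.05, and DESeq2 called 0 as well, with 5 at an unadjusted p under 0.05. The log2 fold changes ran from -0.81 (Slc6a13) to 0.26 (Slc12a4), and 30 of 31 lay within 0.5 of 0. The smallest adjusted p belonged to Slc6a11, whose SB4 libraries at 128 to 134 CPM lay above those of BS2 at 106 to 117 CPM (log2 fold change 0.22, standard error 0.06, edgeR adjusted p = 0.0734). It was followed by Slc1a1 (0.18, standard error 0.06, edgeR adjusted p = 0.197), Slc32a1 (0.18, standard error 0.07, 0.342), Slc1a3 (0.14, standard error 0.06, 0.384) and Slc12a5 (0.1, standard error 0.05, 0.427). The libraries of SB4 and BS2 did not overlap for 4 members, Slc6a11, Slc1a1, Slc12a5 and Slc1a4, and for 16.5% of all genes tested.

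Ratios of members within a library do not depend on scaling, and 5 were compared between SB4 and BS2, of which 4 are given here, by a two-sided exact permutation test over libraries, whose smallest p with 3 against 3 is 0.1. Per kilobase of exon, the exporter Slc12a5 exceeded the importer Slc12a2 by a ratio of 13.8 ± 1.03 in SB4 and 13.5 ± 1.09 in BS2 (SD, n = 3, exact p = 0.5, adjusted over the 5 ratios 0.625). In the bone-rich libraries the order was reversed, with ratios of 0.184 to 0.373 in SB2 and 0.289 to 0.684 in BS6. Slc17a7 exceeded Slc17a6 by 26.8 ± 0.695 in SB4 and 25.8 ± 5.41 in BS2 (exact p = 0.8, adjusted 0.8), but in SB2 the ratio was 0.31, 4.01 and 0.374 and in BS6 0.446, 0.943 and 0.19. Slc1a2 exceeded Slc1a3 by 4.75 ± 0.614 in SB4 and 5.41 ± 0.165 in BS2 (exact p = 0.2, adjusted 0.333), and lay below it in SB2 (0.219 to 0.662) and BS6 (0.287 to 0.591). The ratio of Slc17a7 to Slc32a1 was 10.7 ± 0.686 in SB4 and 11.6 ± 0.401 in BS2 (exact p = 0.2, adjusted 0.333). It was 12.3, 4.67 and 21.8 in SB2, and 0.669 and 30.1 in the BS6 replicates 2 and 3. BS6 replicate 1 had 0 counts of Slc32a1. Apart from BS6 replicate 2, the SB2 and BS6 libraries held at most 4 counts of Slc32a1. None of these 4 ratios reached the smallest p that this design allows.

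**Figure D4:**
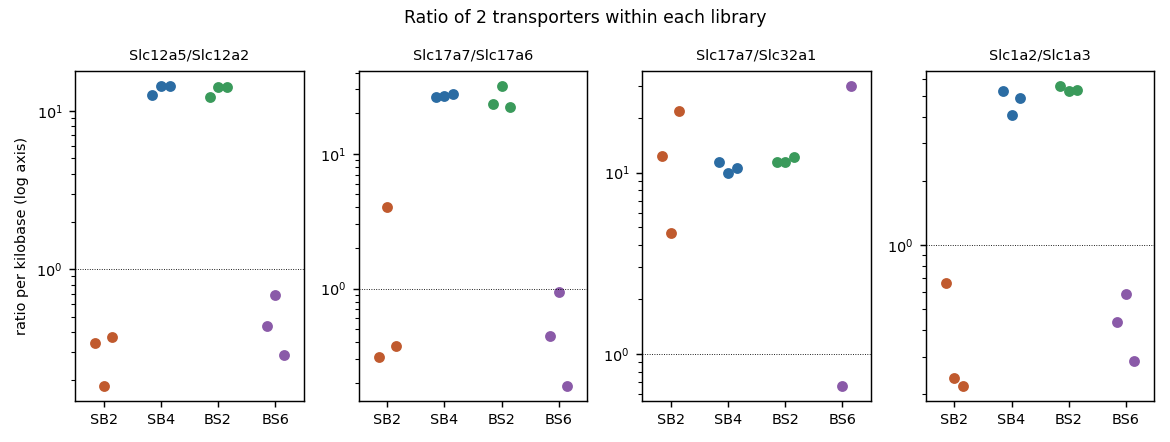
Ratio of 2 transporters within each library, per kilobase of exon, on a log axis that differs between panels; each point is 1 library of the 4 labelled groups, and the dotted line marks a ratio of 1. SB4 and BS2 lie together in every panel, and SB2 and BS6 lie below them for Slc12a5 to Slc12a2, Slc17a7 to Slc17a6 and Slc1a2 to Slc1a3. The ratio of Slc17a7 to Slc32a1 in BS6 replicate 1 is not drawn, since Slc32a1 had 0 counts there.

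The groups with abundant bone transcripts, SB2 and BS6, differed more than SB4 and BS2 did in number of genes, but again 0 of 33 tested members were called by edgeR, beside 1.86% of 16329 genes (0.741% higher and 1.11% lower in SB2). At an unadjusted p under 0.05 there were 6 members, 1 higher and 5 lower in SB2. DESeq2 had 7 members under that p and called 2, Slc1a4 as higher (log2 fold change 1.15, DESeq2 adjusted p = 0.0069) and Slc6a7 as lower (-1.47, DESeq2 adjusted p = 0.00483) in SB2. Among the members reported here the smallest adjusted p of edgeR was that of Slc1a4, at 50, 42.2 and 48.5 CPM in SB2 and 27.1, 11.6 and 24.2 CPM in BS6 (log2 fold change 1.15, standard error 0.3, edgeR adjusted p = 0.0746). Slc6a7 followed with 6.21, 8.19 and 5.56 CPM against 17.2, 9.66 and 27.8 CPM (-1.47, standard error 0.39, edgeR adjusted p = 0.0765). Slc6a6 was next (-0.52, standard error 0.14, edgeR adjusted p = 0.0788), and Slc12a9 stood at 24.9, 29.4 and 26 CPM against 32.7, 57.1 and 41.3 CPM (-0.73, standard error 0.22, edgeR adjusted p = 0.0941). Of the 33 members 28 had a negative value, that is a lower level in SB2, and 7 did not overlap between the groups, beside 38.1% of all genes tested. The median log2 fold change was -0.42 for the tested members and -0.02 for all genes.

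Several of these values rested on BS6 replicate 2. In the 3 BS6 libraries Slc32a1 had 0, 100 and 1 counts, Slc1a6 had 6, 130 and 15 and Slc6a5 had 0, 18 and 7. Without replicate 2 the BS6 mean of Slc32a1 went from 2.03 to 0.0318 CPM, that of Slc1a6 from 3.07 to 0.673 CPM and that of Slc6a13 from 9.48 to 4.16 CPM. The BS6 means of Slc6a12 (2.44 to 1.16 CPM), Slc6a11 (7.2 to 4.69 CPM) and Slc1a3 (43.7 to 29 CPM) also moved by more than 1.5 times. Other libraries moved fewer means that far: without BS6 replicate 3 the mean of Slc12a3 went from 1.18 to 0.691 CPM and that of Slc18a1 from 1.04 to 0.61 CPM, and without SB4 replicate 3 that of Slc1a5 in SB4 went from 1.16 to 0.765 CPM. Without BS6 replicate 2 the difference of Slc6a7 between SB2 and BS6 was called at -1.77 (edgeR adjusted p = 0.00452). Slc1a2 was also highest in this library (25.5, 66.4 and 8.85 CPM in the replicates 1 to 3), as was Slc17a7 (5.35, 7.79 and 3.69 CPM), while Slc17a6 was lowest in it (12, 8.27 and 19.5 CPM). Marker genes chosen after these values were seen gave 77 counts of the Purkinje cell gene Pcp2 in replicate 2 against 1 and 0 in the others, 62 counts of Ppp1r17 against 0 and 0, and 242 counts of the cerebellar granule cell gene Cbln3 against 12 and 23. The forebrain gene Emx1 had at most 1 count in each BS6 library. The summed level of the 3 Purkinje cell markers was 2.93, 24.4 and 4.77 CPM in BS6 and 6.26 to 6.84 CPM in SB2. It was 9.08 to 11.5 CPM in SB4 and 8.5 to 10.6 CPM in BS2, where Ppp1r17 was at 0 counts. The third marker, Car8, made up most of this sum in every library. Car8 was at 5.99 to 6.78 CPM in SB2, 8.37 to 11.5 in SB4, 8.28 to 10.5 in BS2 and 2.87, 16 and 4.77 in BS6. Outside BS6, Pcp2 stayed at or below 0.638 CPM and Ppp1r17 at or below 0.133 CPM. The part of such cells in the transporter levels was not tested.

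**Figure D5:**
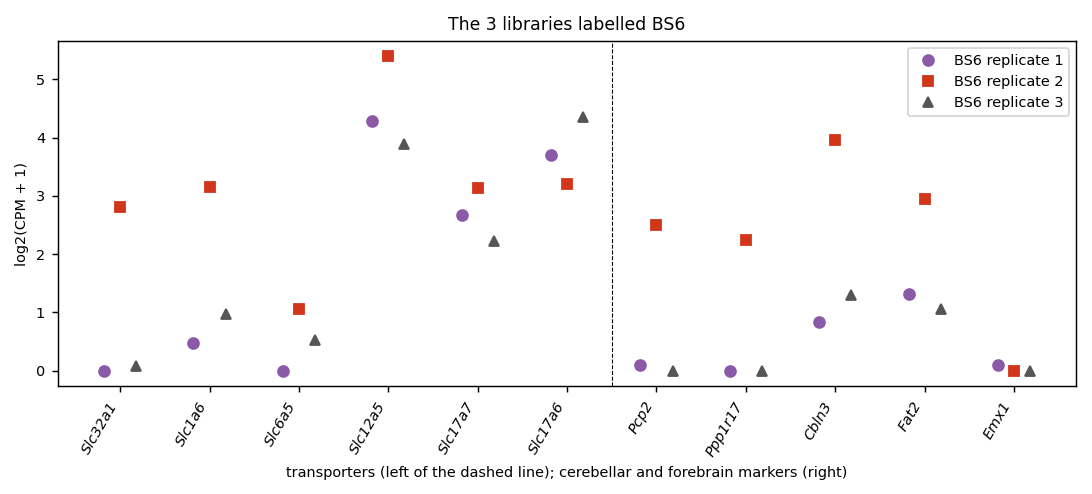
Levels in the 3 BS6 libraries on a scale of log2(CPM + 1), for 6 transporters left of the dashed line and for cerebellar and forebrain marker genes right of it. Replicate 2 (squares) lies above the replicates 1 and 3 for Slc32a1, Slc1a6, Slc6a5 and Slc12a5 and for Pcp2, Ppp1r17, Cbln3 and Fat2, and not for Slc17a6 or Emx1.

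Genes that make, break down or regulate what these transporters carry were read from a list of 43, of which 40 were in the table. In SB4 against SB2, 39 were tested, 18 were higher and 6 lower, beside 27.8% and 28.6% of all genes. In BS6 against BS2, 39 were tested, 8 were higher and 18 lower, beside 29% and 26.5% of all genes. Of 8 tested genes of transmitter synthesis, 4 were higher and 2 lower in SB4 than in SB2, and 3 were higher and 4 lower in BS6 than in BS2. The GABA synthesis genes Gad1 and Gad2 moved with Slc32a1, with log2 fold changes of 8.15 and 8.64 in SB4 against SB2 and -5.55 and -6.67 in BS6 against BS2. Nearly all of the BS6 counts of these genes came from BS6 replicate 2, with 423 of 440 counts of Gad1 and 106 of 106 counts of Gad2, and the standard errors there were 1.62 and 1.42. Of 11 genes of transmitter breakdown and recycling, 7 were higher in SB4 than in SB2 (27.8% of all genes) and 7 lower in BS6 than in BS2 (26.5% of all genes), among them Glul, the glutamine synthetase gene (2.1 and -1.22), and Abat, the GABA transaminase gene (3.15 and -2.77). Tph1, which makes serotonin outside the brain, moved with Slc6a4 (-8.12 and 8.92), although its SB2 libraries ran from 3.33 to 101 CPM. Tph2, which makes serotonin in neurons, was called in the opposite directions at low counts, higher in SB4 with 68 counts against 14 in SB2 and lower in BS6 with 3 counts against 54 in BS2. The taurine synthesis genes Cdo1 (-2.39 and 1.32) and Csad (-1.23 and 1.83) moved in the direction of Slc6a6. Of 7 tested genes for kinases and a scaffold that regulate cation-chloride cotransport, 4 were higher and 1 lower in SB4 than in SB2. In BS6 against BS2, 1 of them was higher and 3 lower, and Wnk1 and Oxsr1 were called in neither comparison. Among these kinases, Wnk2 (5.39 and -4.78) and Wnk3 (3.59 and -4.36) changed in the direction of Slc12a5 and Wnk4 (-1.76 and 2.26) in that of Slc12a4. Each of the values in parentheses is a fitted log2 fold change that passed the thresholds, SB4 against SB2 before BS6 against BS2. In SB4 against BS2, 0 of 38 tested genes of this list were called by edgeR (0.147% of all genes), and in SB2 against BS6, Slc7a11, the cystine and glutamate exchanger gene, was higher (1.38, edgeR adjusted p = 0.0486) and Wnk4 lower (-1.14, edgeR adjusted p = 0.0408) among 36 tested, beside 0.741% and 1.11% of all genes.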

How the data were processed

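RNA was read from 12 libraries, 4 groups of 3, as raw counts per gene, which the authors deposited as 1 table. Per the study's methods, poly(A) libraries were sequenced paired-end, trimmed with fastp and aligned with HISAT2 2.1.0 to mm10. The counter, the use of strand and whether a batch correction preceded the deposited counts are not given in the sources used here, so antisense and overlapping genes may share reads. Totals of 14126082 to 18972654 counts set the counting precision, which does not cover the spread between the 3 libraries of a group.

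Each comparison was fitted on its 6 libraries over all genes with edgeR 4.0.16 (R 4.3.3): low genes were removed by filterByExpr (10 counts), followed by TMM factors, robust quasi-likelihood tests and Benjamini-Hochberg adjustment. A call needed an adjusted p below 0.05 with a log2 fold change beyond 1 in either direction. DESeq2 1.42.0, other scalings and filters, a fit over 12 libraries, a replicate block and leaving out each library were alternatives. The scripts were tested on simulated data. Levels are CPM with TMM factors over the 12 libraries, and lengths are merged exons of GENCODE M21 (mm10). Every member was accounted for by its role, and where no member was called, those of the 5 smallest adjusted p that are reported here were named. The values of some genes, members included, are not reported here, and counts over the members include them. The members and lists were chosen with earlier results of these data known.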

Additional observations from a re-analysis of the deposited data

Results flagged for a closer look

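For 27 members the change from SB2 to SB4 differed from the change from BS2 to BS6, by edgeR's test of the difference over the 12 libraries (35 tested). The difference is the log2 fold change of SB4 against SB2 less that of BS6 against BS2. The days and the tissue content of the libraries cannot be told apart in it, and 73.6% of all genes passed the same thresholds.

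The difference was positive for 18 members, and the values reported here follow. Among carriers of glutamate and neutral amino acids it was 14.46 for Slc1a2, 13.04 for Slc1a1, 7.4 for Slc1a3, 3.31 for Slc1a6 and 2.14 for Slc1a4. Among vesicular carriers it was 15.57 for Slc17a7, 12.48 for Slc32a1, 3.88 for Slc17a8 and 3.68 for Slc17a6. In the Slc6 family it was 10.65 for Slc6a17, 9.98 for Slc6a15, 8.33 for Slc6a11, 4.98 for Slc6a7 and 1.25 for Slc6a9. In the Slc12 family it was 10.67 for Slc12a5. For Slc6a16 it was 7.76, a fitted value that rests on 4 counts over the SB2 libraries and 1 count over the BS6 libraries and is no bound. The value of Slc32a1 rests on 9 counts over the SB2 libraries. Of the BS6 counts, replicate 2 held 100 of 101 for Slc32a1 and 130 of 151 for Slc1a6.

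The difference was negative for 9 members. It was -11.47 for Slc1a5, -9.54 for Slc17a9, -8.73 for Slc12a7, -5.89 for Slc12a4, -5.52 for Slc18a1, -3.04 for Slc12a8 and -2.65 for Slc6a6. The fitted value of Slc18a1 rests on 5 counts over the SB4 libraries and 10 over the BS2 libraries and is no bound. For Slc6a4 it was -17.51 and for Slc12a1 -9.27, and these fitted values rest on groups with few or 0 counts and are no bounds.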

How the results depend on the processing

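With at least 10 counts in every library, members called lower in SB4 than in SB2 went from 10 to 3. Most of the lost members were no longer tested, while Slc6a13 was tested and lost its call (edgeR adjusted p = 0.0521). In SB2 against BS6, 0 calls in each direction became 1 in each with DESeq2 and with 1 fit over 12 libraries. Leaving out each library gave 14 to 16 higher and 9 to 10 lower members in SB4 against SB2, 8 to 9 and 13 to 16 in BS6 against BS2, 0 to 0 in both directions in SB4 against BS2, and 0 to 1 in each direction in SB2 against BS6.

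The log2 difference of the ratio of Slc12a5 to Slc12a2 between SB4 and BS2 ran from -0.038 to 0.095 and that of Slc17a7 to Slc17a6 from -0.024 to 0.241 when libraries were left out. The ratio differences turned to -0.038 without BS2 replicate 1 and -0.003 without SB4 replicate 2 for the former, and -0.024 without BS2 replicate 3 for the latter.

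Same-numbered libraries did not deviate together (12 pairs, r from -0.14 to 0.11, 1 above 0.1). A pair with different numbers, SB2 replicate 3 and BS6 replicate 1, reached 0.25. These values gave no sign of pairing by number, but 3 libraries per group cannot exclude it. With the replicate block 14 members were higher and 9 lower in SB4 against SB2, 8 and 14 in BS6 against BS2, and 0 in the other comparisons. Under the block Slc6a13 (adjusted p = 0.134 by edgeR) and Slc17a8 (0.0561) were not called. Of 56 followed gene results, chosen after seeing the data as members called in some fit plus the named ones of the like groups, 423 of 433 alternative values and 322 of 336 leave-one-out values kept direction and call. Upper-quartile scaling moved the median of all genes by -0.13 in SB4 against SB2. At this depth members under about 0.2 CPM could not be resolved.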
